A study of Mus musculus with 2 samples.

Results

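Solute carriers are membrane proteins that move ions, nutrients and metabolites across the plasma membrane and the membranes of organelles. The genes examined here are the expressed solute carriers of mouse embryos at the 4 to 8-cell stage. They are all rows whose symbol starts with Slc and a digit and whose mean count over both libraries was at least 20, leaving out Slc2a1, Slc2a3, Slc16a1 and Slc38a4. Of 369 such rows among the 23418 rows of the table, 116 had no count in either library, 129 had counts with a mean below 20, 4 were left out by name, and 120 were kept. The mean of both counts chose these genes, so their presence above 20 counts is not a result. Slc35c2 and Slc25a23, at a mean of 20, lay just inside the limit. Just outside it lay Slc25a30 at 19.5, with 25 counts in siDnmt1 embryos and 14 in scrambled controls, and Slc24a2 at 18.5, with 1 count in siDnmt1 embryos and 36 in scrambled controls.

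The siDnmt1 group is 1 library from a pool of 20 C57BL/6 embryos injected with an siRNA against Dnmt1, the methyltransferase that keeps up DNA methylation when DNA is replicated. The scrambled group is 1 library from a pool of 20 C57BL/6 embryos injected with a scrambled siRNA. Messenger RNA was captured on oligo-dT beads and its cDNA was amplified by 20 cycles of PCR. With 1 library per group, no difference has a replicate check, no p-value was computed, and every comparison concerns these pools only.

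A secondary active carrier uses the gradient of sodium or protons that ATP-driven pumps maintain, while facilitative carriers move a substrate along its own gradient. In cleavage-stage mouse embryos, carriers for glycine, taurine, bicarbonate, protons and pyruvate are known for their part in cell volume, internal pH and energy supply. Dnmt1 acts on cytosines that are followed by guanine, called CpG sites, and promoters differ widely in how many of these they hold.

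To show that range, the 250 bases before the annotated start are printed for the 2 highest and the 2 lowest carriers by log2 ratio among those with a single start in the RefSeq promoter table (build GRCm38.p6). All 4 run 5′ to 3′, with every CG in capitals.
Slc28a2 (chr2:122426185-122426434, plus strand): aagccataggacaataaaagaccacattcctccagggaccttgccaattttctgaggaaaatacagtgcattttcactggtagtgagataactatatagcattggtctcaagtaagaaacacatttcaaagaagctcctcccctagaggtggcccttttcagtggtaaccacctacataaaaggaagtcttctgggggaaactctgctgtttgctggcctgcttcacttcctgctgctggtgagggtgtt
Slc30a1 (chr1:191906531-191906780, plus strand): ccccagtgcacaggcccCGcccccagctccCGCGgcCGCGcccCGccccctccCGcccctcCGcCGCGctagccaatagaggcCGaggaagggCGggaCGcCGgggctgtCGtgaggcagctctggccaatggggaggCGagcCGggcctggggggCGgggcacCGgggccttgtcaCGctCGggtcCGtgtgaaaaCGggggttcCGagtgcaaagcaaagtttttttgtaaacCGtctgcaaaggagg
Slc2a12 (chr10:22644761-22645010, plus strand): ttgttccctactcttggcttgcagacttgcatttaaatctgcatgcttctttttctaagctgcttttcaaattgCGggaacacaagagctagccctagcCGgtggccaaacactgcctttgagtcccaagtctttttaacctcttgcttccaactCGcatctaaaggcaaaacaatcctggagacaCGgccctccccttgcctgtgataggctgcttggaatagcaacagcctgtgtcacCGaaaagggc
Slc7a8 (chr14:54781887-54782136, minus strand): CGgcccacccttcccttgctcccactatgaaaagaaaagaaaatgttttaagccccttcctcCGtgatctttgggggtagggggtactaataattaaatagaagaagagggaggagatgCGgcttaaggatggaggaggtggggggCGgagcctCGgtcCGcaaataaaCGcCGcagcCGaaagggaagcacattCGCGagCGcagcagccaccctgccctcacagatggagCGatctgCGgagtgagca

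Slc28a2 and Slc30a1, both higher in the siDnmt1 library, hold 0 and 25 CpGs in these windows. Slc2a12 and Slc7a8, both lower, hold 5 and 14. Over all carriers with a window, the genes above included, the medians of both directions were close. A window was found for 89 of the 120 genes, with the first listed start used where there were several. The median was 16.5 CpGs for 16 carriers higher by 2-fold or more in the siDnmt1 library, 14 for 15 carriers lower by 2-fold or more and 14 for 58 carriers within 2-fold. Over all genes compared, the same medians were 17, 16 and 18. Of the carriers' windows 98.9% held at least 1 CG, against 99.2% of the windows of all genes compared and 92.1% of all 32851 entries of that table. CG reads the same on both strands, so each match counts for both. These windows were read from the reference and not from the embryos, and methylation was not measured in these libraries.

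Total counts were 12236615 for siDnmt1 embryos and 11675483 for scrambled controls. Rn45s, the ribosomal RNA precursor, took 37.3% of them in siDnmt1 embryos and 29.9% in scrambled controls. Of the 8 oocyte and cleavage-stage markers examined, all had counts in the scrambled library and 7 in the siDnmt1 library, where Ooep had 0 against 15. The 7 cumulus and granulosa markers had 0 counts in both libraries. Of 4 fibroblast and blood markers, Ptprc alone had counts, 16 against 6. Dnmt1 itself had 687 counts in siDnmt1 embryos and 847 in scrambled controls, 1.23-fold lower (95% counting interval 1.11 to 1.37). Of all genes compared, 38.3% lay at or below its log2 ratio.

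The first question was how far the carriers as a group differed between the libraries. The carriers together held 71103 counts in siDnmt1 embryos and 52122 in scrambled controls, which is 36.4% more. In pooled embryos, fewer cells of a kind and less RNA per cell cannot be told apart, and the share of 4-cell and 8-cell embryos in each pool is not given. As a share of counts outside Rn45s, the carriers held 0.927% in siDnmt1 embryos and 0.637% in scrambled controls. Odc1 alone took 16.5% of the counts outside Rn45s in siDnmt1 embryos and 24.5% in scrambled controls, so these shares depend on it. One gene, the creatine carrier Slc6a8, made up 27.5% of the difference in carrier counts, and without it the sums were 63947 and 50190 counts. The sum rests on few genes, since the 12 most abundant carriers held 68.3% of the carrier counts in siDnmt1 embryos and 64.0% in scrambled controls.

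Gene by gene, differences were put on the scale log2((siDnmt1 + 5)/(scrambled + 5)), on which a gene was counted as 2-fold apart at 1 or more or at -1 or less. On this scale 22 of the 120 carriers (18.3%) were higher by 2-fold or more in the siDnmt1 library, against 12.5% of all 7315 genes averaging at least 20 counts. A further 18 carriers (15.0%) were lower by 2-fold or more, against 16.7% of all genes. The other 80 lay within 2-fold. Both the higher and the lower group hold genes that passed the limit on the mean through 1 library only. All genes compared were chosen by the same limit. At a 4-fold limit, 5 carriers were higher (2.64% of all genes) and 4 lower (4.51% of all genes). The median log2 ratio was 0.13 for the carriers and -0.02 for all genes, and the middle 50% of carriers spanned -0.50 to 0.79. Counts were higher in the siDnmt1 library for 69 carriers (48.7% of all genes compared were higher) and lower for 51. Both shares lie near those of all genes, the higher one somewhat above.

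By counting error alone, these ratios are known closely for abundant carriers and only loosely for scarce ones. The 95% interval of the plain ratio of counts lay above 1 for 50 carriers, against 35.4% of all genes, and below 1 for 35, against 37.0% of all genes. The other 35 had intervals that include equality. Folds below are plain ratios of counts with this interval in brackets, so a gene can have a plain fold just over 2 and still lie within 2-fold on the log2 scale. The intervals cover counting error only and leave out amplification and the differences between pools of embryos. They also leave out the choice of scaling. With totals made equal outside Rn45s, the log2 ratio of 10 carriers lay outside its interval, against 1 with the counts as they stand. An interval with a limit close to 1 can therefore include or leave out equality by the scaling alone. Even counts were more common than odd ones in both libraries of this paired-end run: at even values from 4 to 30 there were 2084 genes in siDnmt1 embryos and 2010 in scrambled controls, against means of 1912.5 and 1851.5 at the neighbouring odd values. Counts may therefore not all be independent reads, and the intervals may be too narrow.

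**Figure D1:**
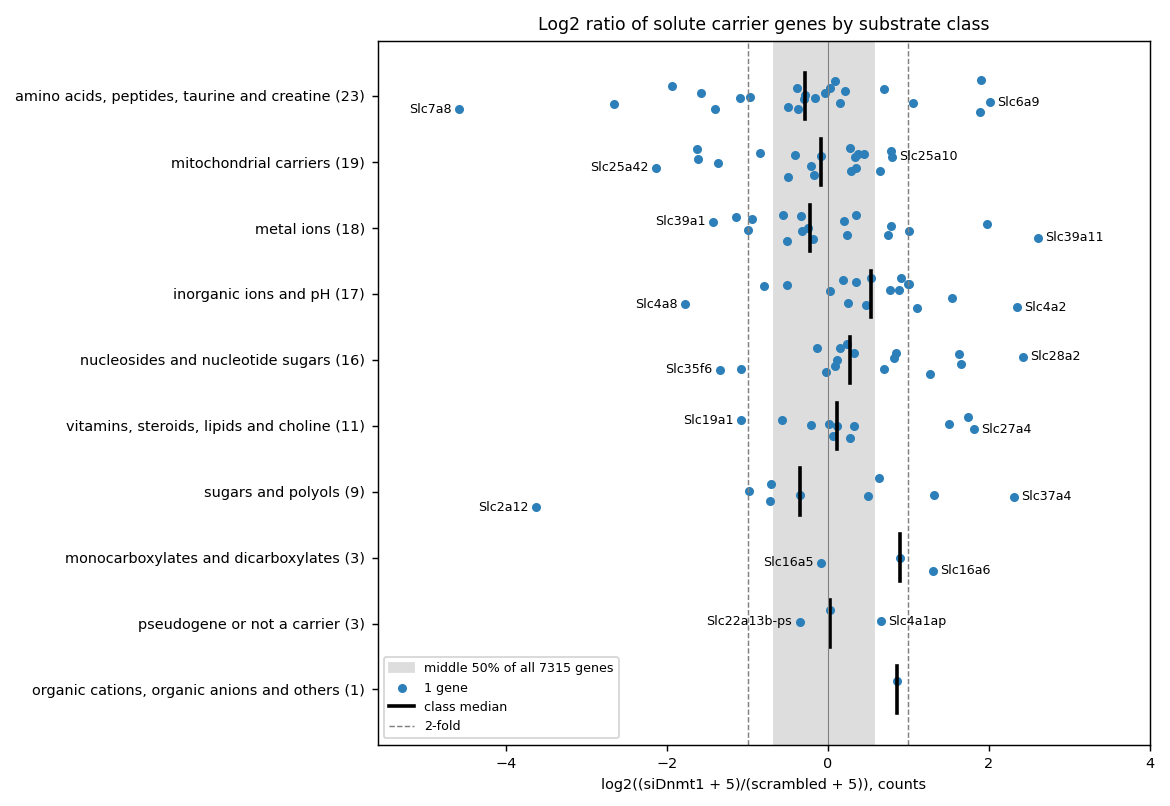
Each point is 1 solute carrier gene, placed by its log2 ratio of counts (siDnmt1 over scrambled, 5 added to each) and grouped by substrate class with the number of genes in brackets; black bars are class medians and the grey band is the middle 50% of all genes. Points scatter on both sides of 0 in most classes, with inorganic ion carriers mostly to the right and no mitochondrial carrier past 2-fold on the right.

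The direction of the difference went with abundance. Of the 56 carriers with a mean of at least 100 counts, 11 (19.6%) were higher by 2-fold or more and 2 (3.57%) lower by 2-fold or more in the siDnmt1 library. Among the 4233 genes of that abundance, 9.33% were higher and 11.4% lower. Of the 15 carriers with a mean of at least 1000 counts, 13 had more counts in the siDnmt1 library, against 57.9% of the 985 genes of that abundance. In that group 4 were higher by 2-fold or more (7.82% of all such genes) and 0 lower by 2-fold or more (7.21% of all such genes). The carriers lower by 2-fold were thus mostly scarce: 16 of the 18 had a mean below 100 counts. Lower genes were often scarce in general, since 739 of the 1221 lower genes among all those compared had such a mean. Among the 64 carriers of that low abundance, 11 (17.2%) were higher and 16 (25.0%) lower, close to the 16.7% and 24.0% of the 3082 genes alike in abundance. Class shares below are set beside all genes averaging at least 20 counts, so those of scarce classes need these shares beside them.

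**Figure D2:**
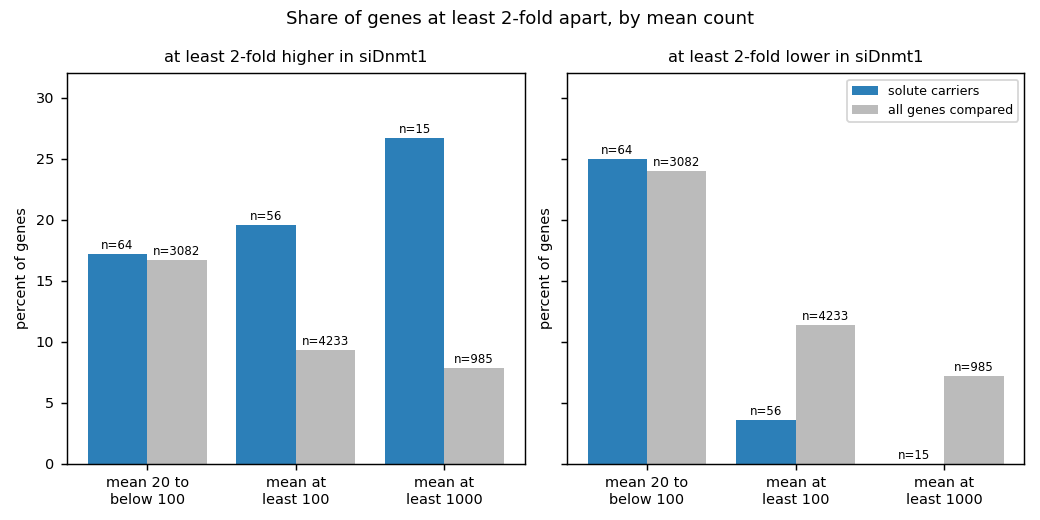
Bars give the percent of genes higher by 2-fold or more (left panel) or lower (right panel) in the siDnmt1 library, for solute carriers and for all genes compared, by mean count over both libraries; genes averaging at least 1000 are also in the group of at least 100. Among carriers with a mean of at least 100 counts 19.6% were higher and 3.57% lower, against 9.33% and 11.4% of all genes.

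Transcript length moves with the log2 ratio in these libraries, so it was set beside the carriers. Over the 7270 genes with a length, the rank correlation of length and log2 ratio was 0.24, a description across genes that share the same pair of libraries. Among the 120 carriers it was 0.02. With all genes cut into 3 equal bins by length, carriers in the shortest bin (2998 nt or less) had a median log2 ratio of 0.19, where all genes of that length had -0.31. In the longest bin (over 4657 nt) the medians were 0.04 for 34 carriers and 0.18 for all genes. The median length was 3737 nt for carriers and 3787 nt for all genes. With the length trend removed, 21 carriers (17.5%) were higher by 2-fold or more, against 12.9% of all genes, and 17 (14.2%) lower by 2-fold or more, against 14.0% of all genes.

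**Figure D3:**
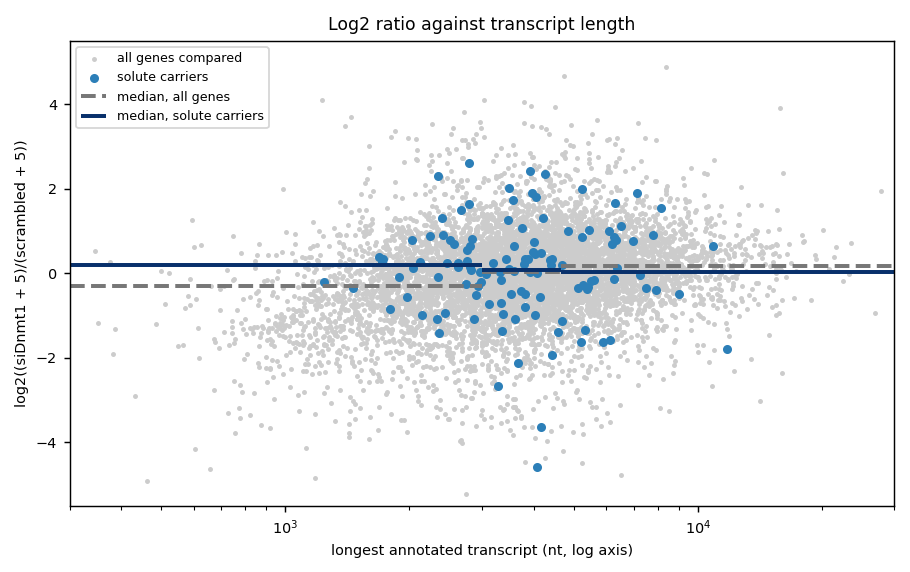
Each point is a gene, placed by the length of its longest annotated transcript (log axis, nt) and its log2 ratio of counts; blue points are solute carriers and horizontal lines are medians within 3 bins of length. The medians of all genes run upward with length, at -0.31, 0.02 and 0.18, while those of the carriers were 0.19, 0.07 and 0.04.

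Levels between genes were compared per kilobase of the longest transcript and per 1000000 counts outside Rn45s. Those counts include Odc1, whose share differed between the libraries as given above. On this scale Slc25a3, the mitochondrial phosphate carrier that feeds ATP synthesis, was highest, at 296 in siDnmt1 embryos and 203 in scrambled controls. Slc4a11, of the bicarbonate transporter family, followed at 277 and 218. Slc5a6, which brings in biotin and pantothenate, stood at 174 and 129, and the zinc importer Slc39a4 at 143 and 159. Slc6a8 had rank 5 by the mean of both libraries, with 235 in the siDnmt1 library but 59.5 in the scrambled library. With 1 library per group, neighbours in this order cannot be told apart beyond counting error.

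**Figure D4:**
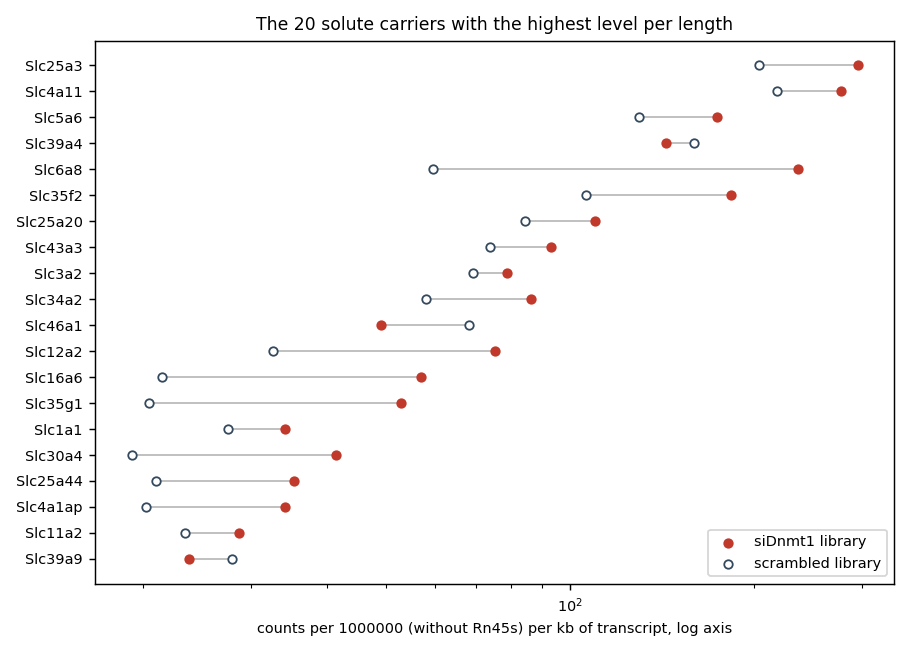
For the 20 solute carriers with the highest level per length, the level in counts per 1000000 outside Rn45s per kilobase is shown on a log axis, filled for the siDnmt1 library and open for the scrambled library. Slc39a4, Slc46a1 and Slc39a9 are the genes whose filled point lies left of the open one.

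Carriers of amino acids, peptides, taurine and creatine were the largest class, with 23 genes. Their median log2 ratio was -0.28. By 2-fold or more, 4 (17.4%) were higher and 6 (26.1%) lower, against 12.5% and 16.7% of all genes. The median of their mean counts was 67.5, and all 6 lower genes had a mean below 100. Of all genes averaging 20 to below 100 counts, 16.7% were higher and 24.0% lower, so the lower share lies near that of scarce genes. The 5 sodium and chloride-dependent Slc6 carriers lay at both ends, with 3 higher and 2 lower in the siDnmt1 library. Slc6a8, the creatine carrier, had 7156 counts in siDnmt1 embryos and 1932 in scrambled controls, 3.70-fold higher (3.52 to 3.90). This was the highest log2 ratio, 1.89, among all 985 genes averaging at least 1000 counts. Slc6a9, the glycine carrier GLYT1 that preimplantation mouse embryos use in the control of cell volume, had 116 against 25 counts, 4.64-fold higher (2.99 to 7.46). Its exons overlap those of Ccdc24 and B4galt2 on the opposite strand, which had 0 and 0, and 2 and 1 counts. Slc6a6, the taurine carrier, had 1343 against 827 counts (1.62-fold). The less abundant Slc6a15, which takes up branched neutral amino acids, had 18 against 44 counts, and the proline carrier Slc6a7 had 19 against 42.

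The Slc7 light chains, most of which reach the plasma membrane only when bound to the heavy chain Slc3a2, differed among themselves, while the heavy chain lay near equality. Slc3a2 had 1696 counts in siDnmt1 embryos and 1598 in scrambled controls, with an interval that includes equality (0.991 to 1.14). Slc7a8, the light chain LAT2 for neutral amino acids, had 2 against 163 counts. That is a ratio of scrambled over siDnmt1 of 81.5 (22.2 to 679) and the lowest log2 ratio of all 120 carriers, -4.58. Slc7a4, a relative of the cationic carriers, had 4 against 52 counts, with an interval from 4.78 to 49.5-fold lower. Slc7a6, the y+LAT2 light chain, went the other way with 374 against 177 counts, 2.11-fold higher (1.76 to 2.54). Slc7a5, the LAT1 light chain, had 55 against 80, and Slc7a2, a cationic carrier, 50 against 67.

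Glutamate and glutamine carriers were mixed as well. Slc1a1, a high-affinity carrier of glutamate and aspartate, had 994 counts in siDnmt1 embryos and 858 in scrambled controls. Its relative Slc1a3, known as GLAST in glia, had 8 against 45 counts, 5.62-fold lower (2.62 to 13.8). Slc1a5, which exchanges glutamine, was close to equal at 37 against 33. In the Slc38 family of small neutral amino acid carriers, Slc38a2 had 19 against 67 counts, 3.53-fold lower (2.09 to 6.22), and Slc38a10 had 23 against 69 (1.85 to 5.04-fold lower). The others of that family lay near equality: Slc38a1 had 30 against 31 counts, Slc38a6 46 against 45, and the lysosomal glutamine carrier Slc38a7 98 against 110. None of the 5 Slc38 genes had a 95% interval above 1, against 35.4% of all genes compared and 840 of the 3082 averaging 20 to below 100 counts. Only Slc38a7 had a mean above 100, and so few genes cannot set the family apart.

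The remaining amino acid carriers were Slc43a2, an efflux carrier of branched amino acids, with 40 counts in siDnmt1 embryos and 7 in scrambled controls, 5.71-fold higher (2.53 to 15.1). Slc36a1, a proton-coupled carrier of lysosomes, had 181 against 221 counts. Slc15a4, which takes histidine and peptides out of lysosomes, had 131 against 162, and Slc16a10, for aromatic amino acids, 75 against 99. These last differences were small, at log2 ratios between -0.38 and -0.28.

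Carriers of inorganic ions and pH leaned upward, with a median log2 ratio of 0.54. Of 17 such genes, 14 had more counts in the siDnmt1 library, against 48.7% of all genes compared. By 2-fold or more, 5 (29.4%) were higher and 1 (5.88%) lower, against 12.5% and 16.7% of all genes. The 5 became 3 with 20 counts added in place of 5, with whole totals made equal (not with totals outside Rn45s, which left 5) or with the length trend removed. Slc12a2, the sodium-potassium-chloride cotransporter NKCC1, had 3767 counts in siDnmt1 embryos and 1744 in scrambled controls, 2.16-fold higher (2.04 to 2.29). Of the potassium-chloride cotransporters, which move salt outward, Slc12a7 had 681 against 398 counts and Slc12a4 60 against 108 (1.80-fold lower, 1.30 to 2.51).

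Bicarbonate carriers, which set the internal pH, held both extremes of this class. The chloride-bicarbonate exchanger Slc4a2 had 46 counts in siDnmt1 embryos and 5 in scrambled controls, 9.20-fold higher (3.67 to 29.7). Fastk overlaps it on the opposite strand and had 20 against 5 counts, and the library kit does not mark strand, so their reads cannot be told apart where they overlap. Slc4a7, a sodium-bicarbonate cotransporter, had 56 against 16 counts, 3.50-fold higher (1.98 to 6.54), and the related Slc4a8 had 13 against 57, 4.38-fold lower (2.37 to 8.73). The abundant Slc4a11, placed here by its family and not by its substrate, had 6787 against 5697, 1.19-fold higher (1.15 to 1.23). Of the sodium-proton exchangers, Slc9a8 of the Golgi had 176 against 85 counts (2.07-fold, 1.59 to 2.72) and Slc9b1 41 against 20.

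Phosphate and sulfate carriers had more counts in the siDnmt1 library but did not pass 2-fold on the log2 scale. The intervals of Slc20a1, Slc26a1 and Slc26a11 include equality. Slc34a2, a sodium-phosphate cotransporter, had 2757 counts in siDnmt1 embryos and 1984 in scrambled controls, 1.39-fold higher (1.31 to 1.47). Slc20a1, a second phosphate carrier, was near equal at 46 against 45. The sulfate carriers Slc26a2, Slc26a11 and Slc26a1 had 117 against 60, 56 against 37 and 84 against 65 counts. Slc24a6, which lets calcium out of mitochondria in exchange for sodium, was 1.43-fold lower (1.25 to 1.65), at 361 against 518.

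Among 18 carriers of metal ions, the median log2 ratio was -0.22. By 2-fold or more, 3 (16.7%) were higher and 3 (16.7%) lower (1 with 20 counts added), against 12.5% and 16.7% of all genes. Most of the 18 carriers move zinc, which mouse oocytes take up as they mature and release at fertilisation. The exporters of the Slc30 family remove zinc from the cytosol, and their median was 0.75 over 5 genes. Slc30a4, of intracellular vesicles, had 1729 counts in siDnmt1 embryos and 856 in scrambled controls, 2.02-fold higher (1.86 to 2.19). Slc30a1, of the plasma membrane, had 137 against 31 counts, 4.42-fold higher (2.98 to 6.75). The noncoding gene 1700034H15Rik overlaps it on the opposite strand and had 698 against 163 counts, a similar log2 ratio of 2.07. Its part in the count of Slc30a1 was not tested. Slc30a5 of the secretory pathway had 456 against 270, Slc30a7 69 against 100 and Slc30a6 14 against 33 counts (2.36-fold lower, 1.23 to 4.77).

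The importers of the Slc39 family, which bring zinc into the cytosol, had a median of -0.22 over 10 genes. The highest log2 ratio among all 120 carriers, on the scale with 5 counts added, was that of Slc39a11, with 197 counts in siDnmt1 embryos and 28 in scrambled controls, 7.04-fold higher (4.72 to 10.9). Slc39a1 had 107 against 296 counts, 2.77-fold lower (2.21 to 3.48), and Slc39a7 of the endoplasmic reticulum had 144 against 283. The 2 most abundant importers were slightly lower, with 3019 against 3581 counts for Slc39a4 (1.13 to 1.25-fold) and 991 against 1243 for Slc39a9. For Slc39a9 the overlapping gene Erh had 53 against 481 counts. The pair linked to zinc uptake in mouse oocytes went opposite ways by small amounts, with 439 against 502 counts for Slc39a10 (ratio 0.875, 0.768 to 0.996) and 199 against 156 for Slc39a6 (1.28, 1.03 to 1.58). Slc39a14 had 119 against 152, Slc39a2 33 against 17 and Slc39a13 42 against 35 counts. Exons of Slc39a13 overlap those of Psmc3 on the opposite strand, which had 36907 against 40403 counts. Those of Slc39a2 overlap Mettl17 on the same strand, at 27 against 17. The part of these overlaps in the counts was not tested. The difference between exporters and importers was not tested.

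Of the carriers of other metals, Slc11a2, an iron and manganese importer, had 971 counts in siDnmt1 embryos and 846 in scrambled controls. The copper importer Slc31a1 had 58 against 88. Slc41a1, a magnesium carrier, had 39 against 92 counts and was 2.36-fold lower (1.61 to 3.52).

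Mitochondrial carriers of the Slc25 family numbered 19. Of them, 0 were higher by 2-fold or more (1 with the length trend removed), against 12.5% of all genes. By 2-fold or more, 4 (21.1%) were lower (2 with 20 counts added), against 16.7% of all genes. The median of their mean counts was 50, and 24.0% of all genes averaging 20 to below 100 counts were lower. The class had a median log2 ratio of -0.08. With totals made equal outside Rn45s that median was 0.01, so its sign depends on the scaling. The 3 most abundant were higher in the siDnmt1 library, each by less than 2-fold. Slc25a3, the phosphate carrier, had 9155 counts in siDnmt1 embryos and 6728 in scrambled controls, 1.36-fold higher (1.32 to 1.40). Slc25a20, which exchanges carnitine and acylcarnitine for fatty acid oxidation, had 2317 against 1898 (1.15 to 1.30-fold), and Slc25a44, for branched-chain amino acids, 969 against 615 (1.42 to 1.75-fold). The aspartate-glutamate carrier Slc25a12 of the malate-aspartate shuttle had 482 against 277 (1.74-fold, 1.50 to 2.02), and its partner in that shuttle, the oxoglutarate carrier Slc25a11, had 48 against 39. Slc25a10, a dicarboxylate carrier, had 256 against 146 counts (1.75-fold, 1.43 to 2.16), the largest ratio upward in this class.

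The 4 genes lower by 2-fold or more carry cofactors or nucleotides, as do others of the family that lay within 2-fold. Slc25a42, which brings coenzyme A into the matrix, had 5 counts in siDnmt1 embryos and 39 in scrambled controls, 7.80-fold lower (3.07 to 25.4). Slc25a36, a pyrimidine nucleotide carrier, had 179 against 564 counts, 3.15-fold lower (2.66 to 3.75). Slc25a32, for folate and flavin cofactors, had 8 against 35 (4.38-fold lower, 1.99 to 10.9), and Slc25a23, which exchanges ATP-magnesium for phosphate, had 9 against 31. Slc25a33, a second pyrimidine nucleotide carrier, was near equal at 202 against 214 counts. Slc25a51, which brings in NAD, had 47 against 36, and Slc25a17 of peroxisomes 39 against 30.

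The rest of this family lay within 2-fold. Slc25a39, linked to glutathione import, had 138 counts in siDnmt1 embryos and 105 in scrambled controls, and Slc25a25, a second ATP-magnesium carrier, had 65 against 94. Slc25a5, an ADP-ATP exchanger with many processed pseudogenes that make its count uncertain, had 46 against 54. Slc25a22, for glutamate, had 27 against 31, and Slc25a28, an iron carrier, 25 against 35. Slc25a38, a glycine carrier of haem synthesis, had 24 against 47 counts.

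The 16 genes of nucleoside and nucleotide sugar transport had a median log2 ratio of 0.28. By 2-fold or more, 4 (25.0%) were higher and 2 (12.5%) lower, against 12.5% and 16.7% of all genes. Slc28a2, a sodium-coupled carrier of purine nucleosides, had 38 counts in siDnmt1 embryos and 3 in scrambled controls, a ratio of siDnmt1 over scrambled of 12.7 (4.02 to 64.1). Of the equilibrative carriers, Slc29a4 had 85 against 24 counts, 3.54-fold higher (2.23 to 5.83), the lysosomal Slc29a3 678 against 374 (1.81-fold), and Slc29a2 35 against 31. Slc43a3, a purine nucleobase carrier, had 1868 against 1587 (1.10 to 1.26-fold).

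The Slc35 family supplies nucleotide sugars to the Golgi and endoplasmic reticulum for glycosylation, although the substrates of several members are not settled. Slc35f2 was the most abundant, with 3594 counts in siDnmt1 embryos and 2218 in scrambled controls (1.62-fold, 1.54 to 1.71). Slc35g1 had 1405 against 581 counts, 2.42-fold higher (2.19 to 2.67), and Slc35e2 291 against 89, 3.27-fold higher (2.57 to 4.19). Slc35b2, which carries the sulfate donor used to sulfate proteoglycans, had 52 against 116 counts, 2.23-fold lower (1.60 to 3.16). Slc35f6 had 19 against 56, 2.95-fold lower (1.72 to 5.25). Slc35a4 had 104 against 57, and Apbb3, which overlaps it on the opposite strand, 43 against 4. Slc35e1 had 471 against 376 counts (1.25-fold, 1.09 to 1.44). The intervals of the others include equality: Slc35e4 had 141 against 143, Slc35e3 44 against 41, Slc35b4 25 against 28 and Slc35c2 21 against 19.

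Carriers of sugars and polyols numbered 9, with a median log2 ratio of -0.35. By 2-fold or more, 2 (22.2%) were higher and 1 (11.1%) lower, against 12.5% and 16.7% of all genes. Slc37a4, which brings glucose-6-phosphate into the endoplasmic reticulum, had 89 counts in siDnmt1 embryos and 14 in scrambled controls, 6.36-fold higher (3.60 to 12.1). Both sodium-coupled carriers of myo-inositol, an organic osmolyte, were higher. Slc5a11 had 606 against 241 counts (2.51-fold, 2.16 to 2.93) and Slc5a3 548 against 350 (1.57-fold, 1.37 to 1.80). Slc5a3 shares exons with Mrps6, which had 25 against 128.

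Both facilitative carriers of the Slc2 family in this set had fewer counts. Slc2a12 had 0 counts in siDnmt1 embryos and 57 in scrambled controls. The 95% counting interval used for the other genes gives a lower limit of 15.0-fold lower. With the siDnmt1 library set at a floor of 3 counts, the ratio of scrambled over siDnmt1 is 19.0, which is not a lower limit. Tbpl1, whose exons overlap those of Slc2a12 on the opposite strand, had 2 against 44 counts, and its part in the count of Slc2a12 was not tested. Slc2a8, known as a glucose carrier of mouse blastocysts, had 143 against 240 counts, 1.68-fold lower (1.36 to 2.08). In the sugar phosphate family, Slc37a3 had 84 against 171 (2.04-fold lower, 1.56 to 2.68) and Slc37a1 115 against 80. The Slc45 sugar carriers had 231 against 296 (Slc45a4) and 52 against 88 (Slc45a3).

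The 11 carriers of vitamins, steroids, lipids and choline had a median log2 ratio of 0.12. By 2-fold or more, 3 (27.3%) were higher and 1 (9.09%) lower, against 12.5% and 16.7% of all genes. Slc19a2, a thiamine carrier, had 185 counts in siDnmt1 embryos and 52 in scrambled controls, 3.56-fold higher (2.60 to 4.94), whereas its fellow thiamine carrier Slc19a3 had 187 against 217, with an interval that includes equality. Both folate carriers of the Slc19 and Slc46 families had fewer counts, Slc19a1 with 21 against 50 counts (2.38-fold, 1.40 to 4.17) and the proton-coupled Slc46a1 with 742 against 1106 (1.49-fold, 1.36 to 1.64). Slc52a3, for riboflavin, had 66 against 20 counts, 3.30-fold higher (1.98 to 5.75). Slc5a6, for biotin and pantothenate, had 4574 against 3642 (1.26-fold, 1.20 to 1.31), and Slc23a2, for ascorbate, 202 against 186.

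Slc27a4, which activates and takes up long-chain fatty acids, had 153 counts in siDnmt1 embryos and 40 in scrambled controls, 3.82-fold higher (2.69 to 5.56). Slc10a6, a carrier of sulfated steroids, had 243 against 201 counts, Slc10a7 72 against 69 and the choline transporter-like Slc44a2 103 against 102. The class of carboxylate carriers held 3 genes after Slc16a1 was left out. Slc16a6 had 1844 against 741 counts, 2.49-fold higher (2.28 to 2.71), Slc13a2, for dicarboxylates, 79 against 40 (1.33 to 2.97), and Slc16a5 85 against 91, with an interval that includes equality. Slc22a23, the 1 member of the organic ion class, had 42 against 21 (1.16 to 3.56).

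Of the 120 rows, 3 are no carriers. Slc4a1ap, an adaptor protein gene, had 734 counts in siDnmt1 embryos and 465 in scrambled controls (1.40 to 1.78-fold). Slc7a6os, named for its place beside Slc7a6, had 142 against 139, while Slc7a6 itself was 2.11-fold higher. The pseudogene Slc22a13b-ps had 49 against 64. The intervals of Slc7a6os and of the pseudogene include equality.

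**Figure D5:**
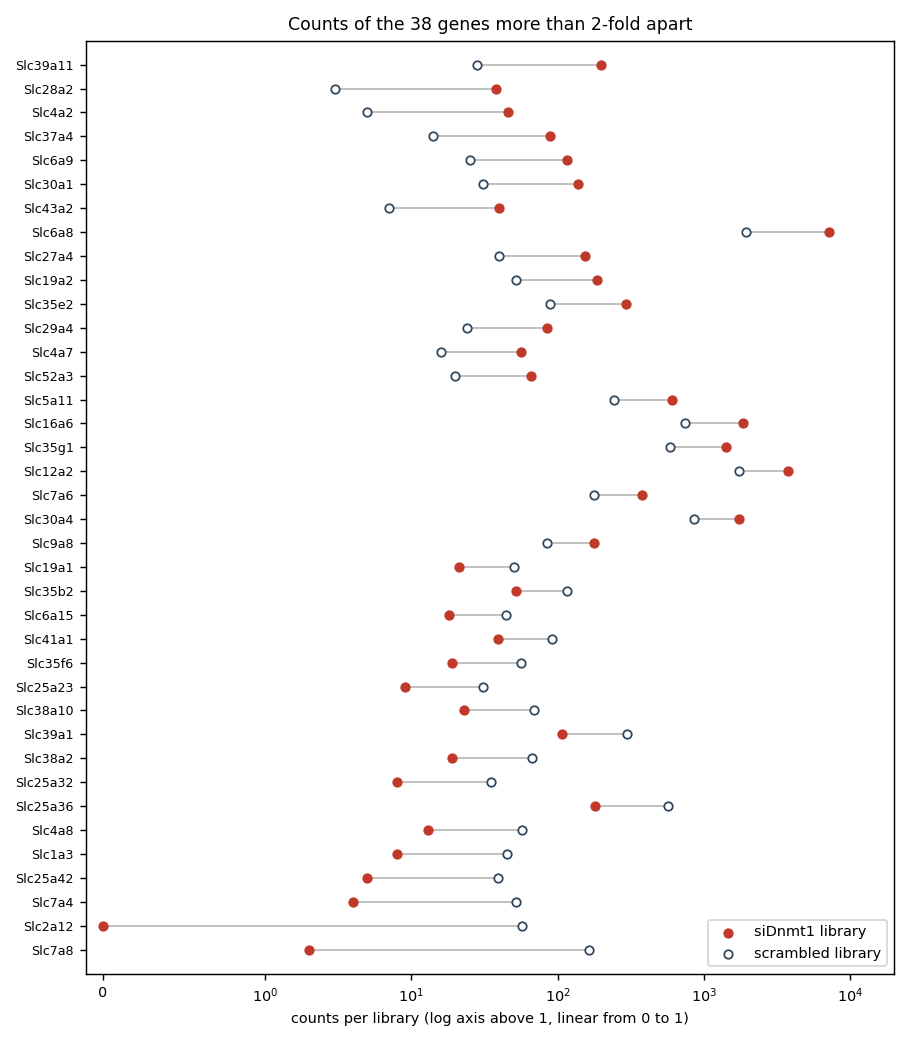
Counts of the 38 solute carriers more than 2-fold apart (log2 ratio above 1 or below -1) are shown per library, filled for siDnmt1 and open for scrambled, in order of log2 ratio from Slc39a11 at the top to Slc7a8 at the bottom (log axis above 1 count). Of the 21 upper genes Slc6a8 has the most counts, 7156 for siDnmt1 and 1932 for scrambled, whereas 13 of the 17 lower genes have fewer than 100 counts in both libraries. Among all genes compared, 739 of the 1221 lower by 2-fold or more had a mean below 100 counts.

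Other membrane transport genes were described from lists by symbol, to set the carriers in context. For each list, the shares to compare are those of all genes, 12.5% higher and 16.7% lower by 2-fold or more. Of 21 carriers and accessory subunits without an Slc symbol, 3 were higher by 2-fold or more and 5 lower by 2-fold or more (median log2 ratio 0.09). Hiat1 had 929 counts in siDnmt1 embryos and 306 in scrambled controls, Mfsd7c 8656 against 4183, Mtch1 66 against 338 and Ctns, the lysosomal cystine carrier, 6 against 78. ATP-binding cassette transporters gave 4 higher and 4 lower of 20 (median -0.02), with Abcd4 at 39 against 4, Abcb1b at 389 against 77, Abca3 at 83 against 335 and Abca13 at 23 against 140. The V-ATPase proton pump gave 1 higher and 3 lower of 11 (median -0.05). Its extremes were Atp6v0a2 at 90 against 28, Atp6ap1 at 5565 against 2843, Atp6v1d at 260 against 922 and Atp6v1g1 at 17 against 93. P-type cation pumps had a median of 0.39 over 10 genes, with 1 higher and 1 lower. Atp2a2, a calcium pump, had 5302 counts in siDnmt1 embryos and 2767 in scrambled controls, Atp13a1 398 against 610 and Atp2b4 82 against 191.

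Exons of 41 of the 120 carriers overlap those of another gene in GENCODE M21, 34 of them on the opposite strand. Without these 41, 14 of 79 carriers (17.7%) were higher by 2-fold or more and 13 (16.5%) lower, against 12.5% and 16.7% of all genes.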

How the data were processed

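The deposited table gives counts per gene symbol for 1 library per group. Per the submitters' processing notes, Trim Galore, HISAT2, HTSeq and DESeq2 were used with the mm9 build; the sources used here give no versions, annotation, strand setting or rule for multiply matched reads. The authors describe the deposited counts as normalised by DESeq2. No whole number from 1 to 59 was skipped (0 in each column) and the low values did not pile up, as scaled and rounded counts would, so the values were taken as unscaled counts. DESeq2 size factors of the deposited counts were 1 in both libraries, which a table already normalised would also have, so scaling by a factor very close to 1 cannot be told.

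A single library per group leaves 0 residual degrees of freedom, and edgeR's quasi-likelihood model was therefore not fitted. Ratios were log2((siDnmt1 + 5)/(scrambled + 5)) over the 7315 genes averaging at least 20 counts. Intervals are 95% Clopper-Pearson intervals of the ratio of 2 counts. Without molecular identifiers they cover counting error only. A library with 0 counts was set at a floor of 3. Lengths are those of the longest GENCODE M21 transcript, used for names and lengths only, since that annotation is on GRCm38. A lowess curve (span 0.3) removed the length trend.

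Substrate classes follow textbook knowledge of each family. The genes, classes and lists were chosen with earlier results of these data known. By rule, every carrier may be named, with intervals for the extremes of each class and for the most abundant genes. Intervals of some other genes, among them Slc38a2, Slc39a10 and Slc35e1, are given outside that rule. The 2 highest and 2 lowest genes of the other lists are named. Some genes that this rule covers are not reported here by name, although the counts and medians of each class and list include them. The classes of Slc4a1ap and of the Slc35 letters e to g were completed, and the class of folate and lipid carriers renamed, after the table was read. Alternatives were pseudocounts of 1 and 20, other limits on the mean, 5 scalings, trends with length and mean count, and a 4-fold limit. The calculation was tested on simulated data. Software: matplotlib 3.10.9, statsmodels 0.14.6, scipy 1.17.1, pandas 2.3.3 and numpy 2.4.6 under Python 3.11.15, with DESeq2 1.42.0 and edgeR 4.0.16 under R 4.3.3 for the scalings.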

Additional observations from a re-analysis of the deposited data

How the results depend on the processing

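No paired analysis was possible because each group has 1 library, and no library could be left out. Adding 20 counts in place of 5 left 10 carriers lower by 2-fold or more, since most of the lower genes are scarce. With a mean of at least 100 counts, 11 carriers were higher by 2-fold or more and 2 lower by 2-fold or more among 56; with no limit on the mean the numbers were 41 and 36 among 249. At a 4-fold limit they were 5 and 4, against 2.64% and 4.51% of all genes. Leaving out carriers with an exon overlap left 14 higher among 79. The other counts over all carriers stayed within 1.5 times those reported, between 18 and 24 higher and between 14 and 21 lower, and the median log2 ratio of the carriers lay between 0.07 and 0.28. Counts within a class are small and moved by more. Adding 20 counts left 3 ion carriers higher in place of 5, and among the lower genes 1 metal carrier in place of 3, 2 mitochondrial in place of 4, and 0 each of nucleoside and vitamin carriers in place of 2 and 1. The 1 lower vitamin carrier also came to 0, and the 1 lower sugar carrier to 2, under some scalings and trends. No carrier at least 2-fold apart changed sign under any of 11 settings, which cover pseudocounts, scalings and trends, and 17 of the 22 higher and 10 of the 18 lower stayed past 2-fold under all 11. Scaling to equal totals without Rn45s and Odc1, leaving out genes with an exon overlap or no carrier function, and the trend with median transcript length were added after the data were seen.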
